A study of Homo sapiens with 20 samples.

Results

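The 10 genes described here are targets of the transcriptional coactivators YAP and TAZ (CCN1, CCN2, AMOTL2 and ANKRD1) and genes of the Hippo pathway that acts on those coactivators (LATS2, AMOTL1, AJUBA, YAP1, WWTR1 and TEAD1). They were listed by Ensembl identifier, to which the count table adds a version number, and all 10 were found among the 19962 genes of the count table. The list was chosen by the gene counts of these same libraries, in which CCN1, CCN2 and AMOTL2 were lower after 1 h of tunicamycin than in the vehicle, so that comparison is given below as a description and supports nothing. Of the 10 genes, 9 passed the filter on low counts in every fit, and ANKRD1 did not.

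The study measured RNA bound by IGF2BP3, an RNA-binding protein that associates with mRNAs and affects their stability and use, in a derivative of the human colorectal carcinoma line HCT116 that conditionally expresses the plant protein OsTIR1. The assay was PAR-CLIP, in which 4-thiouridine is built into RNA, light crosslinks it to bound protein, and the crosslinked bases are read as T-to-C conversions. Labelling, shared by all groups, lasted 15 h with 4-thiouridine at 100 µM, and the crosslinking light had a wavelength of 365 nm and a dose of 0.15 J/cm2. There were 20 libraries over 5 conditions, and per condition 3 were immunoprecipitated with anti-IGF2BP3 and 1 with control IgG.

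The conditions were arsenite at 250 µM for 2 h with PBS for 2 h as its control, and tunicamycin (TM) at 5 µg/mL for 1 h or 4 h with DMSO for 4 h as the control of both. Arsenite causes oxidative stress, and the labels name the compound arsenate in the protocol and arsenite in the sample titles. Tunicamycin blocks N-linked glycosylation and stresses the endoplasmic reticulum. The 1 h treatment was therefore compared with a vehicle given for 4 h. The labels do not say that the libraries of a condition came from separate cultures, so the p-values measure the spread between these libraries, which may be technical. They also state more than 1 RNase concentration without saying which library received which.

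In the Hippo pathway, LATS kinases phosphorylate YAP and TAZ and keep them out of the nucleus. When that restraint is lifted, YAP and TAZ enter the nucleus, bind TEAD proteins and switch on target genes, of which CCN1 and CCN2 are the most used readouts in epithelial cells. Several targets, among them AMOTL2 and LATS2, encode proteins that act back on YAP.

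Each window of 30 bases printed here comes from the bound region of its gene found in the most libraries. Ties went to the region with more reads, and the cluster with the most reads in it was taken. Each shows 1 stretch through which an RNA was recovered, and other regions of the same gene also held reads. For TEAD1 the printed region held 1058 of 6791 cluster reads, and another region held 1564. The windows are given 5′ to 3′ on the strand of the gene in the hg38 build. The capitals mark CATA, CATC or CATT, the DNA spelling of a short element reported for this protein family, searched on the cluster strand only.
CCN1, chr1:85583469-85583498, plus strand: CATCccttcctgaagggggacactccatga
CCN2, chr6:131949143-131949172, minus strand: ttatttaaatctgtttttctaactggggga
AMOTL2, chr3:134357173-134357202, minus strand: ctgccttcttgggatactaagacttgaatt
LATS2, chr13:20974703-20974732, minus strand: cttcaccaagaaaacccaaacaggacactt
YAP1, chr11:102230049-102230078, plus strand: aacaaacgtccagcaagatactttaatcct
TEAD1, chr11:12937434-12937463, plus strand: acagttgtaaaaagagaaattgagttgttt
Each window lies inside the RefSeq interval of its gene. Exon borders were not used here, so no window is assigned to an exon, an intron or a UTR. One of these strings stood in 2 of the 9 windows of the genes with clusters, CCN1 and AMOTL1, and in 40.5% of 364271 windows of the same length over all clusters. A window without a match says only that these letters are not in it.

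Gene counts are given as CPM, the counts per 1000000 of the library after TMM scaling over the 15 anti-IGF2BP3 libraries. The shallowest of these libraries was PBS replicate 2 (130478 counts in total) and the deepest TM 4 h replicate 3 (1568406), so that 1 count was worth between 0.644 and 7.95 CPM. Among cell type markers, clusters of crosslinked reads were found on 6 of 6 epithelial genes and on 0 of 10 markers of fibroblasts, blood, endothelium, liver and muscle. Such counts depend both on how much of an RNA the cells held and on how much of it was bound, and the 2 cannot be told apart here. The library names place the arsenite and PBS libraries in 1 set, replicates 1 and 2 of DMSO and TM in another and replicate 3 of DMSO and TM in another, so levels of the arsenite set and of the tunicamycin set are not separated from their library set.

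CCN1 (ENSG00000142871), also known as CYR61, encodes a secreted protein of the extracellular matrix. It was recovered at 167, 162 and 168 CPM in the 3 arsenite libraries and at 9.75, 15.9 and 7.64 CPM in the PBS libraries, where these values rest on 4, 2 and 3 counts. All arsenite values lay far above all PBS values. The DMSO libraries gave 16.5, 16.0 and 58.8 CPM, of which replicate 3 stood well above the rest. The TM 1 h libraries gave 9.26, 0 and 8.63 CPM from 2, 0 and 9 counts, and the TM 4 h libraries 11.2, 4.02 and 3.86 CPM from 5, 3 and 6 counts. Every tunicamycin library lay below every DMSO library. By mean CPM the order was arsenite (166 ± 3.03, SD, n = 3), DMSO (30.4 ± 24.6), PBS (11.1 ± 4.29), TM 4 h (6.38 ± 4.21) and TM 1 h (5.96 ± 5.17). Arsenite and DMSO did not overlap, DMSO and PBS were separated by less than 1 CPM, and the last 3 conditions overlapped.

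CCN2 (ENSG00000118523), also known as CTGF, encodes another secreted matrix protein of the same family. It reached 33, 31.8 and 25.5 CPM with arsenite and 12.2, 23.8 and 5.1 CPM with PBS, and these groups did not overlap although PBS replicate 2 came close. In DMSO it was at 13.7, 22.4 and 71.6 CPM, and the highest value again came from replicate 3. TM 1 h gave 4.63, 6.66 and 8.63 CPM, and TM 4 h gave 24.7, 13.4 and 11.6 CPM. The TM 1 h libraries were below all DMSO libraries, while the TM 4 h libraries overlapped with DMSO replicates 1 and 2. The order of the means was DMSO (35.9 ± 31.2, SD, n = 3), arsenite (30.1 ± 4.05), TM 4 h (16.6 ± 7.11), PBS (13.7 ± 9.46) and TM 1 h (6.64 ± 2). In that order only arsenite and TM 4 h did not overlap as neighbours.

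AMOTL2 (ENSG00000114019) encodes a member of the angiomotin family, which binds YAP at cell junctions. Its counts were high enough for tighter values than those of CCN1 and CCN2. DMSO gave 107, 140.8 and 179 CPM, TM 1 h 83.3, 53.3 and 58.5 CPM, and TM 4 h 148, 91.2 and 99.2 CPM. The TM 1 h libraries lay below those of both other groups of the tunicamycin set. PBS gave 110, 55.6 and 71.3 CPM and arsenite 119, 90.4 and 139 CPM, 2 groups that overlapped. The means ran from 142.2 ± 35.9 CPM (SD, n = 3) in DMSO through 116 ± 24.3 in arsenite, 113 ± 30.9 in TM 4 h and 78.9 ± 27.8 in PBS to 65 ± 16 in TM 1 h, and all neighbours in this order overlapped.

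ANKRD1 (ENSG00000148677), which encodes an ankyrin repeat protein of the nucleus and sarcomere and is a common YAP readout in other cells, had 4 counts over the 15 libraries. They fell 1 each in arsenite replicate 1, TM 1 h replicate 2, TM 4 h replicate 1 and TM 4 h replicate 3. The gene had 0 counts in all PBS and all DMSO libraries, and a count of 0 in a library allows up to 3. No comparison was possible at this depth.

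LATS2 (ENSG00000150457) encodes a kinase that phosphorylates YAP and TAZ. It gave 180, 71.5 and 150 CPM in PBS and 223, 216 and 241 CPM with arsenite, so all arsenite libraries were higher. The lowest PBS value came from the shallowest library of the study. DMSO gave 181, 172 and 240 CPM, TM 1 h 185, 160 and 140 CPM, and TM 4 h 211, 161 and 189 CPM, which overlapped throughout.

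AMOTL1 (ENSG00000166025), another angiomotin scaffold, gave 134, 207 and 148 CPM in PBS and 124, 97.1 and 106 CPM with arsenite, without overlap. DMSO gave 162, 157 and 156 CPM and TM 1 h 148, 144 and 149 CPM, narrow groups that lay close together and did not overlap. TM 4 h was lower in each library than DMSO, at 108, 149 and 121 CPM. AJUBA (ENSG00000129474), a LIM domain protein that restrains LATS kinases, stood at 80.4, 87.4 and 53.5 CPM in PBS and at 43.1, 33.5 and 56.6 CPM with arsenite, where the groups overlapped by 1 library each. Its 9 values of the tunicamycin set lay between 55.5 and 92.5 CPM in all 3 conditions.

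YAP1 (ENSG00000137693), the gene of YAP itself, varied little. It gave 563, 469 and 502 CPM in PBS and 579, 467 and 519 CPM with arsenite. In the other set it gave 579, 648 and 651 CPM in DMSO, 625, 673 and 644 CPM in TM 1 h and 591, 492 and 508 CPM in TM 4 h, where the values were below all TM 1 h values. WWTR1 (ENSG00000018408), which encodes TAZ, gave 193, 199 and 145 CPM in PBS and 289, 251 and 227 CPM with arsenite, without overlap. Its tunicamycin set lay between 184 and 236 CPM in every condition. TEAD1 (ENSG00000187079), a DNA-binding partner of YAP and TAZ, gave 839, 969 and 790 CPM in PBS and 787, 879 and 777 CPM with arsenite, and these overlapped. It gave 908, 1030 and 1090 CPM in DMSO, 1100, 1080 and 1030 CPM in TM 1 h and 901, 742 and 827 CPM in TM 4 h, the last below every DMSO library.

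**Figure D1:**
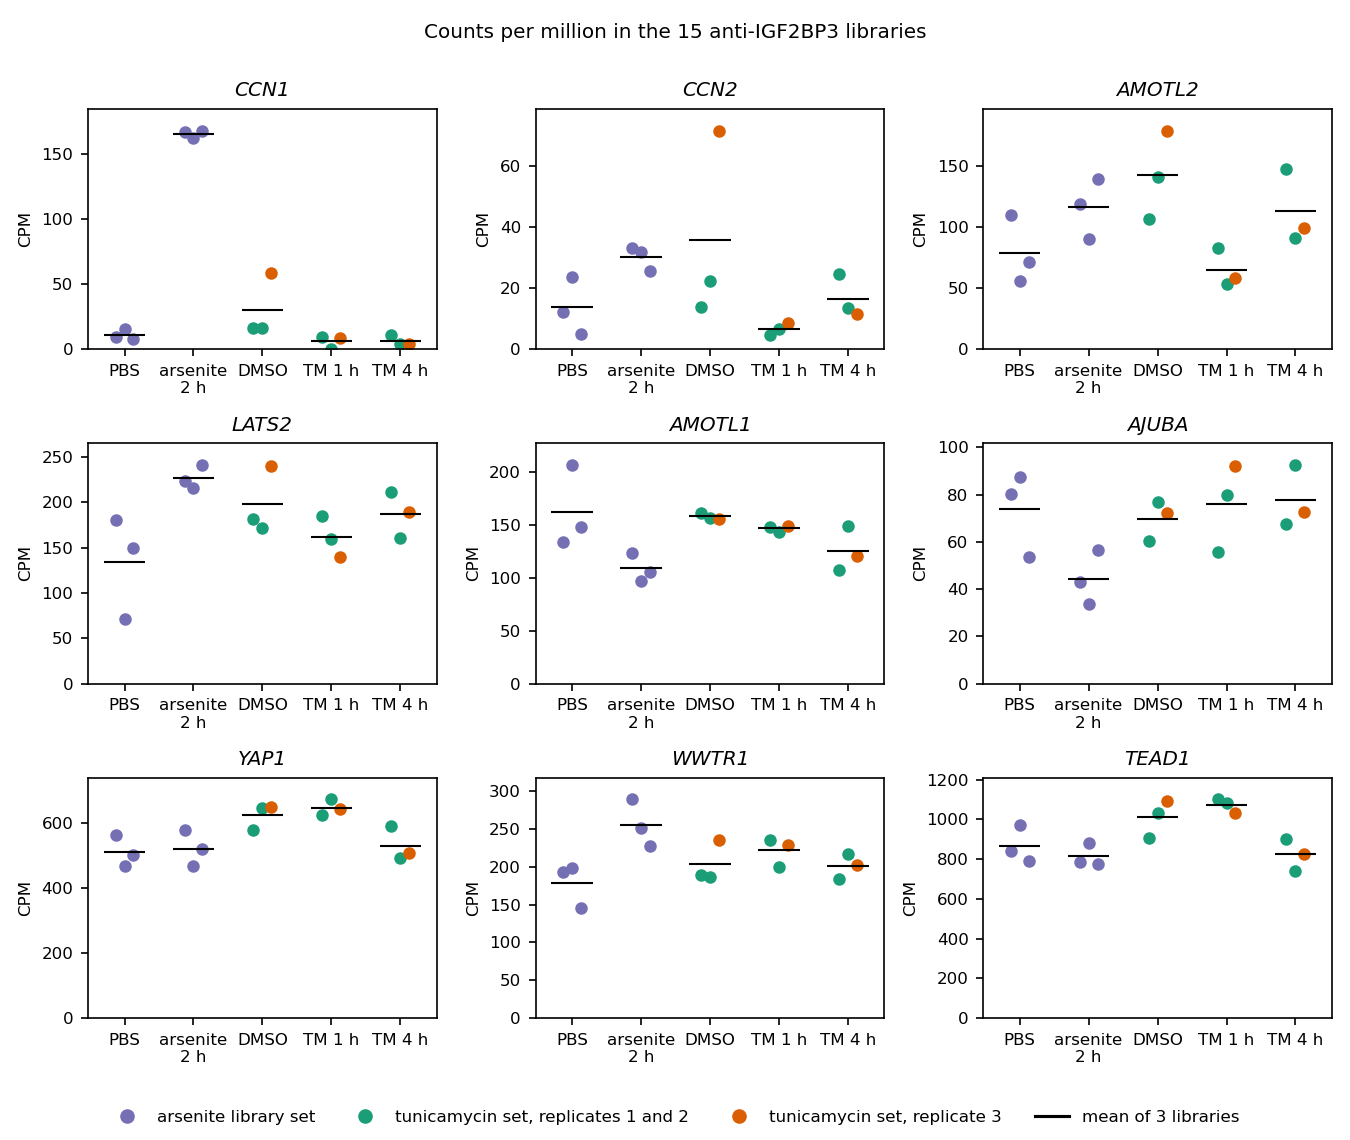
CPM of 9 genes (y axes, each from 0) in the 15 anti-IGF2BP3 libraries by condition (x axes), 1 point per library coloured by library set, with a bar at the mean of 3 libraries. CCN1 stands at 162 to 168 CPM in arsenite and lower in the other 12 libraries, of which DMSO replicate 3 is the highest, while YAP1 and TEAD1 change little.

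Arsenite was the comparison that shared no library with the one used to choose the genes. CCN1 rose 16.7-fold, a log2 fold change of 4.06 ± 0.32 (SE, 3 libraries against 3) with an adjusted p of 6.5e-24 (edgeR quasi-likelihood fit, Benjamini-Hochberg over 6642 genes). CCN2 rose 2.64-fold (log2 1.40 ± 0.49, edgeR adjusted p = 0.018). LATS2 rose by 0.60 ± 0.15 on the log2 scale (edgeR adjusted p = 0.00084) and WWTR1 by 0.52 ± 0.14 (edgeR adjusted p = 0.0022). AMOTL1 fell by 0.49 ± 0.18 on that scale (edgeR adjusted p = 0.023). Thus 4 genes rose and 1 fell of the 9 tested, where 34.8% of all genes tested passed the same threshold. The CPM of the groups did not overlap for the same 5 genes, against 43.6% of all genes. The median log2 fold change of the 9 genes was 0.48, against 0 for all genes tested. These counts and the median include CCN1 and CCN2, which could be tested only because they were high with arsenite, so nothing is read from them.

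The other 4 genes did not pass the threshold with arsenite. AMOTL2 had a log2 fold change of 0.48 ± 0.20 and an edgeR adjusted p of 0.056, and AJUBA one of -0.59 ± 0.26 with an edgeR adjusted p of 0.073. YAP1 had a log2 fold change of -0.01 with a 95% interval of -0.20 to 0.17, and TEAD1 one of -0.05 with an interval of -0.21 to 0.11. These intervals leave room for changes of either sign smaller than those of LATS2 and WWTR1.

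CCN1 and CCN2 passed the filter on low counts here through the arsenite libraries, so they had to be higher in that group to be tested at all. The calls of CCN1 and LATS2 held without any single library. The call of CCN2 was lost without PBS replicate 1 (edgeR adjusted p = 0.067), PBS replicate 3 (0.21) or arsenite replicate 2 (0.059) and with DESeq2 (0.12). That of WWTR1 was lost without PBS replicate 3 (edgeR adjusted p = 0.098), and that of AMOTL1 without any of PBS replicates 2 and 3 and arsenite replicates 2 and 3 (0.076 to 0.093), with DESeq2 (0.12) and with no filter on low counts (0.1). AMOTL2 became called without PBS replicate 1 (edgeR adjusted p = 0.016) or arsenite replicate 2 (0.013), and AJUBA without PBS replicate 3 (0.039) or arsenite replicate 3 (0.029).

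After 1 h of tunicamycin, CCN1 was 5.41-fold lower than in DMSO (log2 fold change -2.44 ± 0.49, SE, 3 libraries against 3), CCN2 5.59-fold lower (-2.48 ± 0.45) and AMOTL2 2.49-fold lower (-1.31 ± 0.19). These 3 were the genes past an adjusted p of 0.05, beside 0.551% of all genes tested, and this is the comparison that put them on the list. The CPM of the groups did not overlap for 4 of the 9 genes, with AMOTL1 as the fourth, beside 15.3% of all genes. No log2 fold change of the other 6 genes passed the threshold. They were -0.41 ± 0.14 for LATS2, -0.10 ± 0.14 for AMOTL1, 0.20 ± 0.18 for AJUBA, 0.04 ± 0.09 for YAP1, 0.09 ± 0.12 for WWTR1 and 0.06 ± 0.08 for TEAD1. The median of the 9 genes was -0.10, against 0 for all genes. CCN1 and CCN2 passed the filter through the DMSO group.

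DMSO replicate 3 carried much of the size of these changes. Of the 94 CCN1 counts in DMSO, 73 came from that library, and of the 115 CCN2 counts, 89 did. Without it, and with the same genes tested, the log2 fold change at 1 h was -1.32 for CCN1 (edgeR adjusted p = 0.52) and -1.36 for CCN2 (0.36), so neither passed the threshold. AMOTL2 kept a log2 fold change of -1.09 (edgeR adjusted p = 0.00047), but this comparison chose the gene, so that p supports nothing. This setting was also chosen after seeing the data. CCN1 was also not called without TM 1 h replicate 2, the library with no CCN1 count (edgeR adjusted p = 0.1). DESeq2 and robust moderation each called AMOTL2 alone, again in the comparison that chose it, so these calls are a description too.

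At 4 h of tunicamycin the control was the same DMSO libraries, in which CCN1, CCN2 and AMOTL2 had been chosen for being high, so their values here are a description too. CCN1 was 6.65-fold lower than in DMSO (log2 fold change -2.73 ± 0.45, SE, 3 libraries against 3), CCN2 2.96-fold lower (-1.57 ± 0.34) and AMOTL2 lower by a log2 fold change of -0.50 ± 0.15. Of the other 6 genes, TEAD1 fell by 0.32 ± 0.08 on the log2 scale (edgeR adjusted p = 0.006) and YAP1 by 0.28 ± 0.08 (0.035). All 5 of these genes were past the threshold, beside 5.11% of all genes tested, and nothing is read from that count. The remaining values were -0.32 ± 0.13 for AMOTL1 (edgeR adjusted p = 0.16), -0.14 ± 0.12 for LATS2, 0.10 ± 0.17 for AJUBA and -0.04 ± 0.11 for WWTR1. The CPM did not overlap for CCN1, AMOTL1 and TEAD1, beside 20.6% of all genes. The median of the 9 genes was -0.32, against 0 for all genes.

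Because of the shared DMSO libraries the comparisons at 1 h and 4 h do not support each other. Without DMSO replicate 3 none of the 9 genes was called, with log2 fold changes of -1.61 for CCN1 (edgeR adjusted p = 0.12), -0.43 for CCN2 (0.75), -0.28 for AMOTL2 (0.54), -0.25 for YAP1 (0.19) and -0.26 for TEAD1 (0.11). Calls were also lost without TM 4 h replicate 2 (AMOTL2, YAP1 and TEAD1), TM 4 h replicate 3 (CCN2, AMOTL2 and YAP1) or DMSO replicate 2 (AMOTL2 and YAP1). DESeq2 called TEAD1 alone, and robust moderation did not call CCN2 (edgeR adjusted p = 0.16). The call of YAP1 was also lost with library totals as the only scaling (edgeR adjusted p = 0.051), and that of AMOTL2 with a mean count of at least 50 (0.05).

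**Figure D2:**
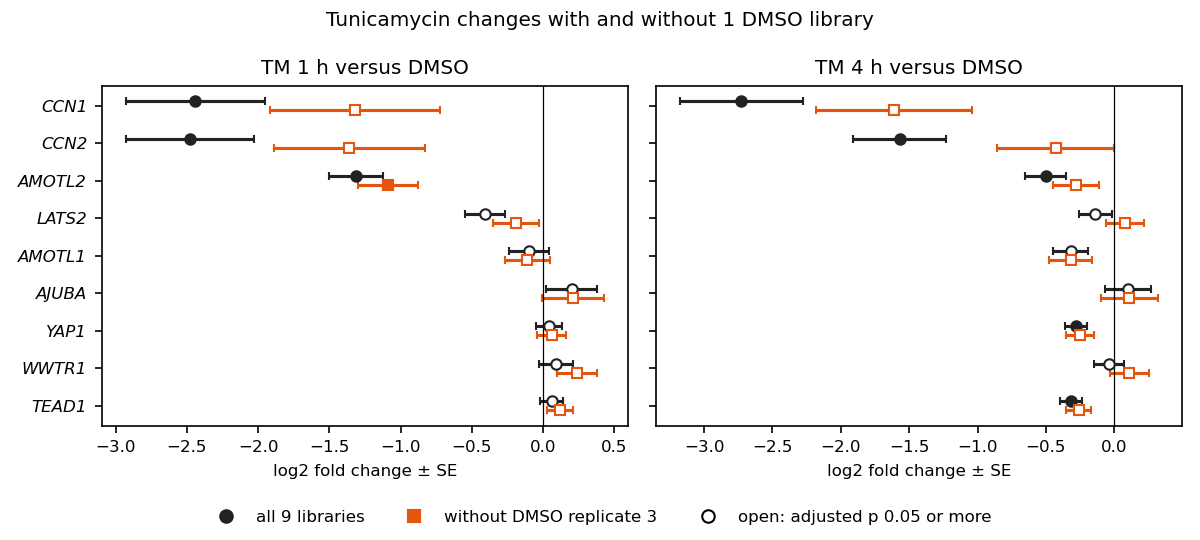
Log2 fold change ± SE (x axes) of 9 genes (y axis) for TM 1 h and TM 4 h against DMSO, with all 9 libraries (circles) and without DMSO replicate 3 (squares), filled where the adjusted p was under 0.05. Without that library CCN1 and CCN2 move from -2.44 and -2.48 to -1.32 and -1.36 at 1 h, and AMOTL2 is the only filled square. CCN1, CCN2 and AMOTL2 were chosen by the comparison at 1 h.

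The comparison between the tunicamycin times shares the TM 1 h libraries with the one that chose CCN1, CCN2 and AMOTL2, so their values are a description. AMOTL2 was higher at 4 h than at 1 h by 0.81 ± 0.20 on the log2 scale (1.76-fold, 3 libraries against 3). YAP1 fell by 0.31 ± 0.09 (edgeR adjusted p = 0.011) and TEAD1 by 0.38 ± 0.08 (0.00059). These 3 of the 9 genes were past the threshold, beside 11.6% of all genes tested, and the median log2 fold change was -0.13 against 0.01 for all genes. CCN2 differed by 0.92 ± 0.55 (95% interval -0.18 to 2.01) although all of its 4 h libraries were above all of its 1 h libraries. CCN1 differed by -0.30 ± 0.71, an interval of -1.71 to 1.12 that leaves a change of either sign possible at this depth. The groups did not overlap for CCN2, AMOTL2, YAP1 and TEAD1, beside 26.8% of all genes. Without TM 1 h replicate 3 only TEAD1 was called, and YAP1 was also lost without TM 1 h replicate 2 or TM 4 h replicate 3.

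The 2 stresses were compared directly by the difference between the arsenite change against PBS and the tunicamycin 4 h change against DMSO. The DMSO libraries were among those by which CCN1, CCN2 and AMOTL2 were chosen. For these 3 genes the tunicamycin term was therefore low by choice, and the difference is a description that supports nothing. CCN1 and CCN2 also passed the filter on low counts through the groups where they are high. The difference was 6.84 ± 0.56 on the log2 scale for CCN1, 2.98 ± 0.64 for CCN2 and 0.98 ± 0.27 for AMOTL2. For LATS2 it was 0.73 ± 0.20 (edgeR adjusted p = 0.0066) and for WWTR1 0.56 ± 0.19 (0.025). These 5 of the 9 genes were past the threshold, all with the higher change under arsenite, beside 18.3% of all genes tested, and nothing is read from that count. The differences of the other 4 genes were 0.26 ± 0.13 for YAP1, 0.26 ± 0.12 for TEAD1, -0.18 ± 0.22 for AMOTL1 and -0.69 ± 0.31 for AJUBA, and none passed. The median was 0.56, against -0.02 for all genes.

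Stress and library set go together in this difference and cannot be told apart. Without DMSO replicate 3 the values were 5.69 for CCN1 (edgeR adjusted p = 1.9e-11), 1.85 for CCN2 (0.042) and 0.76 for AMOTL2 (0.046), while LATS2 (0.51, adjusted p = 0.086) and WWTR1 (0.41, adjusted p = 0.16) were no longer called. AMOTL2 also lost its call without PBS replicate 3 or arsenite replicate 3, and WWTR1 without PBS replicate 3, TM 4 h replicate 3 or arsenite replicate 1, and DESeq2 called neither (0.066 and 0.09). AJUBA became called without arsenite replicate 3 (edgeR adjusted p = 0.041).

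**Figure D3:**
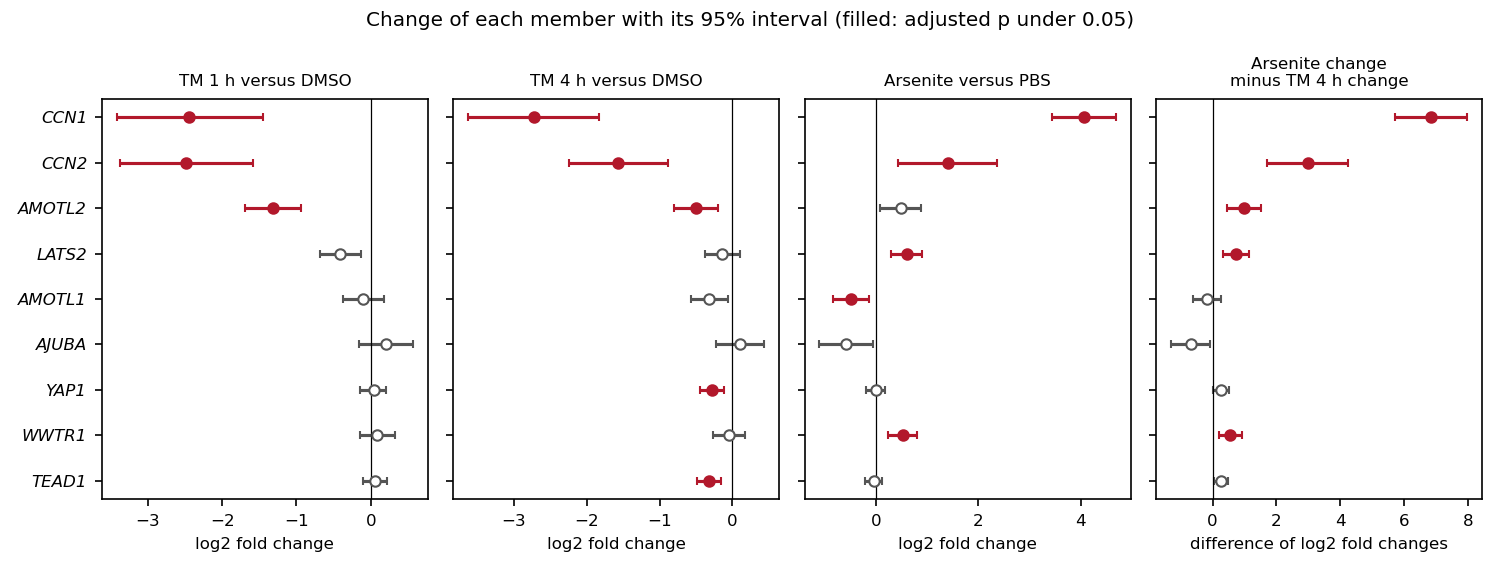
Log2 fold change with its 95% interval (x axes) of 9 genes (y axis) in 3 comparisons with the control and in the difference between stresses, filled where the adjusted p was under 0.05 (3 libraries a group). CCN1 and CCN2 lie left of 0 with tunicamycin and right of 0 with arsenite, at 4.06 and 1.40, while YAP1 and TEAD1 lie within 0.4 of 0 in all 4 panels.

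The clusters of crosslinked reads, called in each library on its own, gave another view of the same libraries. A cluster in these lists has at least 2 reads, and deeper libraries yield more clusters, with 3579 in PBS replicate 2 and 63287 in TM 4 h replicate 3. CCN1 had 31 clusters in 4 libraries, with 5, 6 and 14 in the arsenite libraries and 6 in DMSO replicate 3. Its cluster reads, given as RPM (reads per 1000000 cluster reads of the library), were 133, 139 and 147 RPM with arsenite and 37.6 RPM in DMSO replicate 3. No CCN1 cluster was listed in any PBS or tunicamycin library, including TM 4 h replicate 3, the deepest library. At these clusters 10.8%, 11.1% and 10.8% of events were conversions with arsenite and 11.1% in DMSO replicate 3. Over all clusters the shares were 8.81%, 8.66% and 8.63% in those arsenite libraries and 7.79% in DMSO replicate 3. The CCN1 shares rest on 17, 43, 78 and 33 conversion events, and the difference was not tested. Shares from few events varied widely, such as 4.88% for CCN2 in TM 4 h replicate 3 and 15.6% for AMOTL2 in PBS replicate 1.

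CCN2 had 10 clusters, 7 of them in DMSO replicate 3 and 1 each in arsenite replicates 2 and 3 and TM 4 h replicate 3. Its cluster reads reached 71.5 RPM in DMSO replicate 3 and 23.2, 10.9 and 4.33 RPM in the others. AMOTL2 had 57 clusters in 11 libraries, and the group means of its cluster reads had the same order as those of its counts within the tunicamycin set, although single libraries did not. The cluster reads were 39, 121 and 181 RPM in DMSO, 0, 0 and 31.4 RPM in TM 1 h, and 89.4, 63.6 and 75.8 RPM in TM 4 h. The TM 1 h libraries were below all libraries of the other 2 groups, and no cluster was listed in TM 1 h replicates 1 and 2. Those 2 libraries held 18 and 24 AMOTL2 counts, and shallower libraries yield fewer clusters. CCN1, CCN2 and AMOTL2 were chosen by the DMSO and TM 1 h libraries, so their cluster values there are a description too.

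Among the regulators, YAP1 had 211 clusters, TEAD1 452 and WWTR1 106, and each had clusters in all 15 libraries. LATS2 had 96 clusters in 14 libraries, AMOTL1 55 in 8 and AJUBA 26 in 10, and ANKRD1 had none. On the other strand of WWTR1 lay 11 clusters, in an interval where RefSeq also lists WWTR1-AS1, and whether the gene counts kept strands apart is not given in the sources used here. RefSeq also lists CCN2-AS1 inside the CCN2 interval and TEAD1-AS1 inside that of TEAD1, with 0 clusters on the other strand of either gene. None of the 10 genes had a cluster in an IgG library, but those libraries listed only 33 to 180 clusters each, so nothing is read from this.

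The share of reads within 3000 bases of the gene end varied among the regulators. All cluster reads of CCN1, CCN2 and AJUBA, 98.2% of those of AMOTL2 and 97.0% of those of LATS2 lay within 3000 bases of the gene end. For WWTR1 this was 64.4%, for AMOTL1 54.6%, for YAP1 37.8% and for TEAD1 26.8%. The whole CCN1 interval spans 3190 bases and that of CCN2 3197 bases, so for these 2 genes the window covers nearly the entire gene. In CCN1, a region centred 457 bases before the gene end held clusters in all 3 arsenite libraries and DMSO replicate 3, and the printed window comes from it. In CCN2 the region in most libraries was centred 979 bases before the gene end, with clusters in 4 libraries. AMOTL2 had 2 regions with clusters in 9 libraries each, centred 1918 bases (207 reads) and 1544 bases (196 reads) before the gene end, and the printed window comes from the former.

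**Figure D4:**
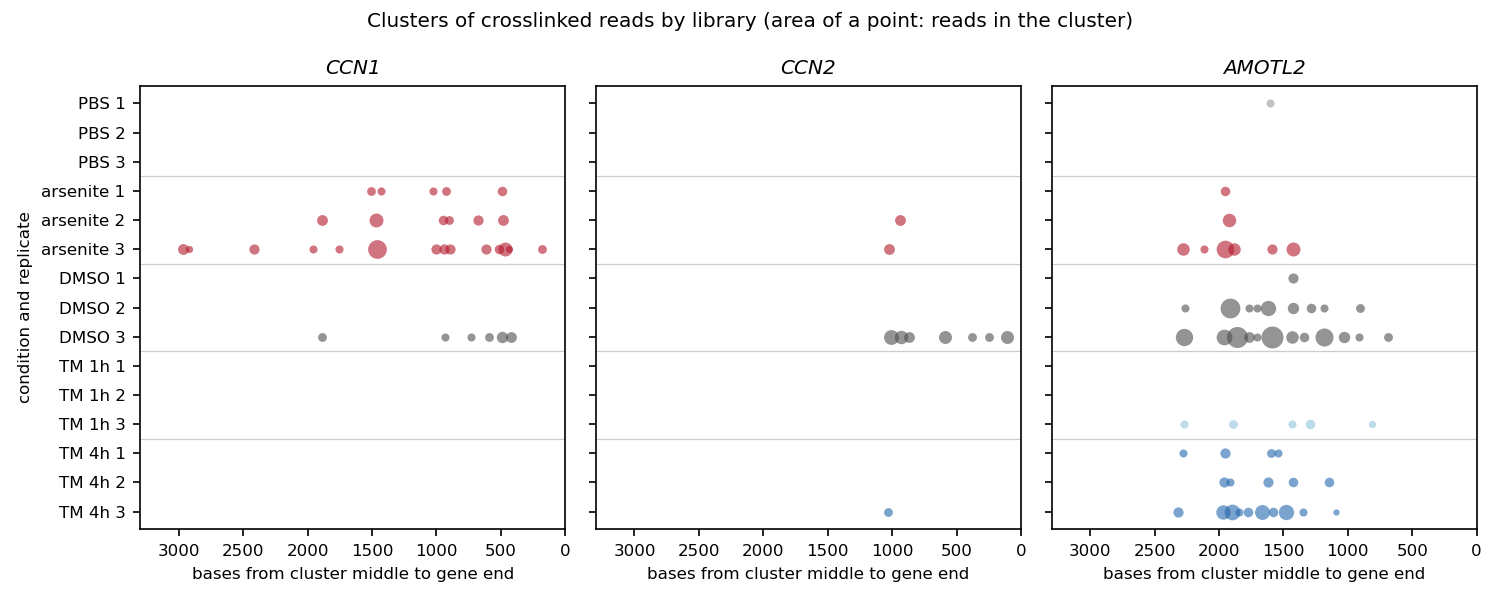
Clusters of CCN1, CCN2 and AMOTL2 in each of the 15 anti-IGF2BP3 libraries (y axis) by the distance in bases from the middle of the cluster to the gene end (x axes), with point area showing reads in the cluster. CCN1 clusters appear in the 3 arsenite libraries and in DMSO replicate 3, and 7 of the 10 CCN2 clusters come from DMSO replicate 3.

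The IgG libraries were too shallow for a level per gene, with totals of 5981 to 17503 counts. Over the 10 genes summed they held between 1270 and 2600 CPM (here without TMM scaling), and the anti-IGF2BP3 libraries between 1820 and 2660 CPM, 2 ranges that overlapped. CCN1 had 4 counts in the IgG library of TM 1 h, which is 669 CPM (exact 95% binomial interval 182 to 1710). In the pooled anti-IGF2BP3 libraries of that condition it had 6.24 CPM (3.12 to 11.2). In the IgG library of TM 4 h it had 3 counts, 260 CPM (53.6 to 759), against 5.02 CPM (2.74 to 8.42). In both tunicamycin conditions the interval of the IgG share of CCN1 therefore lay above that of the anti-IGF2BP3 share. The same held for YAP1 at TM 4 h, with 12 IgG counts, 1040 CPM (537 to 1820), against 508 CPM (482 to 535). In arsenite CCN1 had 2 IgG counts, 214 CPM (25.9 to 771), against 160 CPM. In PBS and DMSO CCN1 had 0 IgG counts, which allows up to 171 and 381 CPM. These intervals cover counting error only.

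Other genes of the pathway were read from the clusters, because the count table could not be joined to their names here, and they carry no test. A gene is called separated here when the RPM ranges of its 3 libraries a group do not overlap. Of 16 upstream Hippo genes, 15 had a cluster in some library. Arsenite was separated from PBS for 3 of them, near the 17.6% of 7341 RefSeq genes with a cluster, so nothing is read from that count. LATS1, the paralogue of LATS2, ran from 280 to 428 RPM with arsenite and from 0 to 65.4 RPM with PBS. SAV1, the scaffold of the upstream kinases, averaged 155 ± 15.7 RPM (SD, n = 3) against 54.1 ± 60.0 RPM. The lowest PBS value of both genes was 0, and PBS replicate 2 listed only 3579 clusters in all. MOB1A, a LATS cofactor, was the one that was lower in RPM, at 884 to 1050 RPM against 1230 to 1300 RPM. RPM divides by cluster reads, which do not keep pace with library totals. PBS replicate 2 had 42699 cluster reads beside 130478 counts, and arsenite replicate 3 had 828783 beside 1098488. Separation in RPM therefore need not hold per library count, which was not examined.

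With tunicamycin for 4 h, 2 of these 16 were separated from DMSO, beside 6.77% of all genes, and nothing is read from that count. LATS1 stood at 231 to 268 against 127 to 171 RPM, and the kinase gene STK3 at 29.8 to 36.3 against 47.7 to 58.5 RPM. At 1 h none of the 16 was separated from DMSO, beside 5.52% of all genes. Of 10 YAP and TEAD partner genes, 7 had a cluster and none was separated in any of the 3 comparisons. Of 17 genes often used as a YAP signature besides the 10, 10 had a cluster, and GADD45A, a stress-induced growth arrest gene, was the one separated. It was higher with arsenite (28.4 to 63.9 against 0 to 21.8 RPM) and at TM 4 h (59.6 to 75.8 against 19.2 to 43.9 RPM). None of the 17 was separated at TM 1 h.

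CCN1 also belongs to the immediate-early genes, which respond to many stimuli within minutes. Of 16 immediate-early genes other than the 10, 15 had a cluster, and 14 were above PBS in all arsenite libraries, beside 17.6% of all genes separated in either direction. Their summed cluster reads were 39400, 36400 and 27100 RPM with arsenite and 2490, 3330 and 2850 RPM with PBS. EGR1, a zinc finger transcription factor, alone averaged 17300 ± 3280 RPM (SD, n = 3) with arsenite and 1230 ± 366 RPM with PBS. In the other set the sum was 4310, 3210 and 5550 in DMSO, 2160, 2170 and 2660 in TM 1 h, and 3330, 3680 and 2420 RPM in TM 4 h. DMSO replicate 3 was the highest of that set, and all TM 1 h libraries were below all DMSO libraries, while the TM 4 h libraries overlapped with DMSO. At TM 1 h, 4 of the list (JUNB, EGR1, ATF3 and NR4A1) were below DMSO in all libraries and none was above, beside 5.52% of all genes. At TM 4 h, 2 of the list (FOSL1 and KLF6) were below DMSO in all libraries and none was above, beside 6.77% of all genes. These values were not tested, and their part in the changes of CCN1 and CCN2 was not tested.

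Likeness of pattern was measured as Pearson's r of log2 CPM over the 15 libraries among 6974 genes with a mean of at least 20 CPM, as a description. The libraries share conditions, depth differences and library sets. CCN1, CCN2 and AMOTL2 were chosen for being lower at TM 1 h than in DMSO in these same libraries, so r among them supports nothing. The 2 genes most like CCN1 were ENSG00000153234_15 and ENSG00000123358_20, each with r = 0.94, and 115 genes reached at least 0.8. CCN2 had r = 0.72 with CCN1, which placed CCN1 16th in its list, and r = 0.66 with AMOTL2. The gene most like CCN2 was ENSG00000138166_6 with r = 0.80. For AMOTL2 it was ENSG00000171940_13 with r = 0.84, and LATS2 came 4th with r = 0.73. Between YAP1 and TEAD1 r was 0.70, and both were near 0 with CCN2, at -0.07 and -0.03.

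The stretch before the start of CCN2 is printed because it is a known site of TEAD action and CCN2 was among the genes that were lower with tunicamycin. It covers the 250 bases upstream of the RefSeq start (GRCh38.p14, chr6:131951373-131951622, minus strand), with capitals on the TEAD core motif GGAATG or, on the other strand, CATTCC.
CCN2 upstream sequence: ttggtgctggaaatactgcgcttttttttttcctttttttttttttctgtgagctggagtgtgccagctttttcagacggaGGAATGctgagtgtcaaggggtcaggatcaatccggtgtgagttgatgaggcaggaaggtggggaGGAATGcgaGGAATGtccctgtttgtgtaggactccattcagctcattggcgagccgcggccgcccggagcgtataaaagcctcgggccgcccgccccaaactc
The 3 matches began 169, 104 and 95 bases before the start. Such a match stood in 11.9% of 35116 RefSeq windows of this length. ANKRD1 held 2 matches, at 220 and 128 bases, and YAP1 1, at 162 bases. AMOTL2 and AJUBA each held 1 in the second of 2 listed windows, and AMOTL1, LATS2 and WWTR1 held none. CCN1 and TEAD1 were not searched, because the RefSeq windows used here include neither gene. A match is a string of letters and not a measured site, and these libraries measured RNA and not binding of TEAD to DNA.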

How the data were processed

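Raw read counts per gene, whole numbers in 1 table over 20 libraries, were deposited by the authors, with 1 list of clusters per library that per the file headers holds read counts and counts of conversion events. The submitters' processing notes name bcl2fastq 2.20.0.422, UMI-tools 1.1.1, Trimmomatic 0.30, Bowtie 0.12.7 and featureCounts 2.0.1, and the builds GRCh38.p13 and hg38. The program that called the clusters, the counting settings and the treatment of overlapping genes and strands are not given in the sources used here. The lists of 2 IgG libraries carry names reversed against their samples, and the attachment of each list to its sample was followed. No column of the count table was left over (0).

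Groups follow the treatment and antibody in the labels. The count test was that of edgeR 4.0.16 under R 4.3.3 (filterByExpr, TMM, quasi-likelihood test, two-sided) with Benjamini-Hochberg adjustment over all genes tested and a threshold of 0.05. The 9 DMSO and TM libraries shared 1 fit, the 6 arsenite and PBS libraries another, and the 12 of PBS, arsenite, DMSO and TM 4 h one more for the difference between stresses. The SE is that of the fitted log2 fold change. CPM values use the total and TMM factor of each library. Total counts per library set the precision, and intervals of counts are exact binomial intervals. The test was checked on simulated data with 2-fold changes, of which it recovered 51% to 79%, with 2 to 9 false calls per comparison. That simulation gave all genes of a fit 1 common spread. It therefore does not cover genes such as CCN1 and CCN2, whose DMSO libraries differed widely. Alternatives were DESeq2 1.42.0, library totals as the scaling, other filters, robust moderation, a replicate block, 1 library set alone and each library left out in turn. The alternative that keeps the same genes without DMSO replicate 3 was chosen after seeing the data.

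The 10 genes and all gene lists were chosen with earlier results of these data known. The rule for names was all 10 genes, and the 4 genes most like CCN1, CCN2 and AMOTL2, of which at most 2 are printed, since the files give identifiers without names and the RefSeq table holds no such identifiers. For the same reason the pathway lists were not tested on gene counts. They were read from clusters overlapping RefSeq gene intervals on the strand of the gene (GRCh38.p14), as reads per 1000000 cluster reads (RPM). The coordinates of both agree in that 525 of 525 clusters inside RefSeq promoter windows had the same sequence. The strand of CCN1 and TEAD1 was taken from their clusters. Printed sequences are from the cluster lists and from RefSeq.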

Additional observations from a re-analysis of the deposited data

Results flagged for a closer look

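Of the 9 genes tested, 5 passed the threshold in the test of the difference itself, beside 18.3% of all genes tested. That difference is the arsenite change against PBS minus the tunicamycin 4 h change against DMSO, and nothing is read from the count. The differences on the log2 scale were 6.84 for CCN1, 2.98 for CCN2, 0.98 for AMOTL2, 0.73 for LATS2 and 0.56 for WWTR1, with edgeR adjusted p-values of 4.3e-16, 3e-04, 0.0051, 0.0066 and 0.025. The DMSO libraries were among those by which CCN1, CCN2 and AMOTL2 were chosen, so the tunicamycin part of their difference is a description. The adjusted p-values of CCN1, CCN2 and AMOTL2 therefore support nothing. CCN1 and CCN2 also passed the filter on low counts through the groups where they are high. CCN1 and CCN2 were higher with arsenite and lower with tunicamycin, but without DMSO replicate 3 their log2 fold changes at TM 4 h were -1.61 and -0.43 and neither was called (edgeR adjusted p = 0.12 and 0.75). AMOTL2 was lower with tunicamycin, a call also lost without that library, and was not called with arsenite, and LATS2 and WWTR1 were called higher with arsenite and were not called with tunicamycin. No group holds 4 or more libraries, so single libraries were not tested as outliers.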

How the results depend on the processing

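Over the 9 genes and 5 comparisons, 717 values were recomputed, of which 626 kept direction and side of the threshold, 66 were no longer called, 7 became called and 18 changed sign. The count of genes called at TM 1 h (3) became 1 with DESeq2, with a mean count of at least 50, with robust moderation, in 1 library set alone and without DMSO replicate 3, and 1 to 3 with each library left out. At TM 4 h (5) it became 1 with DESeq2, 2 with a mean count of at least 50, 0 in 1 library set and 0 without DMSO replicate 3, and 0 to 5 over single libraries. DESeq2 gave no adjusted p for CCN1 and CCN2 there. CCN1 was tested in 11 of 17 settings at TM 1 h and in 10 at TM 4 h, and CCN2 in 16 and 15. TM 4 h against TM 1 h (3) ranged from 1 to 3 over single libraries. Arsenite (5) became 3 with DESeq2 and 3 to 5 over single libraries. The difference between stresses (5) became 3 with DESeq2, 3 with a mean count of at least 50, 1 in 1 library set and 3 without DMSO replicate 3, and 3 to 5 over single libraries. A mean count of at least 50 removes CCN2 from every fit and CCN1 from the fits with tunicamycin, and the other causes were not tested. The replicate block gave 3, 5, 3, 6 and 5 calls in the order above, and the sixth with arsenite was AMOTL2 (log2 0.57, adjusted p = 0.03). Libraries of the same number had r of -0.12 to 0.09 for tunicamycin and 0 to 0.02 for arsenite in their deviations from the group means. Libraries of different numbers had -0.07 to 0.1 and -0.02 to 0.02. These values show no pairing by number but cannot exclude one, and replicate 3 of DMSO and TM is a library set of its own. The sign changes were all of values not called. At TM 1 h AJUBA became 0 in 1 library set and -0.01 without TM 1 h replicate 3, and YAP1 0 without DMSO replicate 1. At TM 4 h LATS2 became 0.06 and WWTR1 0.12 in 1 library set, 0.08 and 0.11 without DMSO replicate 3, and AJUBA -0.03 without TM 4 h replicate 2. Between times AJUBA became 0.21 in 1 library set and 0.12 without TM 1 h replicate 3. With arsenite YAP1 became 0.03 without a filter, 0.02 with a mean count of at least 50, 0.03 with the block, 0.07 without PBS replicate 1 and 0.06 without arsenite replicate 2, and TEAD1 0.01 without arsenite replicate 3. Over single libraries these values spanned -0.01 to 0.29 (AJUBA) and 0 to 0.07 (YAP1) at TM 1 h, -0.26 to 0.08 (LATS2), -0.12 to 0.11 (WWTR1) and -0.03 to 0.20 (AJUBA) at TM 4 h, -0.23 to 0.12 (AJUBA) between times, and -0.06 to 0.07 (YAP1) and -0.10 to 0.01 (TEAD1) with arsenite. Depth left ANKRD1 without a test, and the PBS and tunicamycin libraries hold 0 to 9 CCN1 counts each.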
